A study of Rattus norvegicus with 12 samples.

Results

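The 7 transcripts of respiratory complex I that are encoded in mitochondrial DNA, Mt-nd1, Mt-nd2, Mt-nd3, Mt-nd4, Mt-nd4l, Mt-nd5 and Mt-nd6, were followed through a Cpeb4 immunoprecipitation from rat heart muscle cells. They were chosen by Ensembl gene identifier (in the same order ENSRNOG00000030644, ENSRNOG00000031033, ENSRNOG00000033615, ENSRNOG00000029707, ENSRNOG00000031053, ENSRNOG00000029971 and ENSRNOG00000029042) from the 32883 genes of the deposited count table, and all 7 were among the 10491 genes tested. The cells were ventricular cardiomyocytes of neonatal Wistar rats, with an age of 2 days in the labels, isolated by trypsin digestion and a Percoll gradient. They were mock-treated or exposed for 24 h to phenylephrine (PE), which stimulates alpha-adrenergic receptors and is widely used to make cardiomyocytes grow in culture. The 12 libraries form 4 groups of 3: total RNA (input) of mock cells, RNA recovered with a Cpeb4 antibody (IP) from mock cells, input of PE cells and IP of PE cells. The labels name no genetic change, and do not say whether animals were pooled or whether replicates were separate cultures, so the p-values reflect the scatter among these 12 samples, part or all of which may be technical. None of the 12 libraries is a precipitate made with a control antibody, so binding to Cpeb4 and background binding cannot be told apart.

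Complex I, the NADH:ubiquinone oxidoreductase, passes electrons from NADH to ubiquinone, pumps protons across the inner mitochondrial membrane and is a main entry to the respiratory chain on which the beating heart depends. Its core membrane subunits are made inside the organelle from mitochondrial DNA, and its other subunits are encoded in the nucleus and imported. Mitochondrial DNA is transcribed from both strands into long precursors that are cut mostly at tRNAs. Mt-nd6 is the member read from the light strand, opposite to the others, and its mRNA is generally described as lacking the poly(A) tail that most mitochondrial mRNAs carry. Mt-nd4l and Mt-nd4 lie on a single mRNA with overlapping reading frames. Cpeb4 belongs to a family of proteins that bind cytoplasmic polyadenylation elements and is known as a regulator of mRNAs in the cytosol.

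The libraries were made with a 3′ end kit, and their totals ranged from 1423334 to 30216559 counts. Mock replicate 2 and PE replicate 1 stood apart in the input, and mock replicate 2 in the IP. Among genes with a mean of 5 to 10 CPM (counts scaled to a library total of 1000000) in the other libraries of their type, 14.7% had no count in mock input replicate 2 and 13.3% in PE input replicate 1, against at most 3.03% in the other inputs. In mock IP replicate 2 the value was 48.5%, against at most 16.7% in the other precipitates. Results are therefore also given without mock replicate 2 and PE replicate 1 of both input and IP, which leaves 2 libraries in each group. By this measure PE IP replicate 1 did not stand apart (14.4%), and it was left out by its replicate number. The libraries left out also held the members' lowest shares among the inputs and among the precipitates. Results without them are thus not independent of the members' levels.

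The complex I transcripts took a smaller part of the Cpeb4 precipitates than of the inputs. Together they held 3.77%, 1.25% and 3.72% of all counts in mock inputs 1, 2 and 3, and 0.751%, 2.46% and 3.28% in PE inputs 1, 2 and 3. In the mock precipitates they held 1.31%, 0.429% and 1.48%, and in the PE precipitates 0.241%, 0.775% and 0.431%. Of the 6 inputs, 4 lay above every precipitate, and the 2 others were the inputs that stood apart, mock replicate 2 and PE replicate 1. The mock mean was 2.91% ± 1.44 (SD, n = 3) for the inputs and 1.07% ± 0.566 (n = 3) for the precipitates, 2.71-fold lower. In PE cells it was 2.16% ± 1.29 (n = 3) in input and 0.482% ± 0.271 (n = 3) in IP, 4.49-fold lower. Without mock replicate 2 and PE replicate 1, the shares ran from 2.46% to 3.77% in 4 inputs and from 0.431% to 1.48% in 4 precipitates. These sums are a description and carry no p-value, because the members were chosen with earlier results of these data known. For PE against mock in bulk RNA of this kind, fewer cells of a type and less RNA per cell cannot be told apart.

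**Figure D1:**
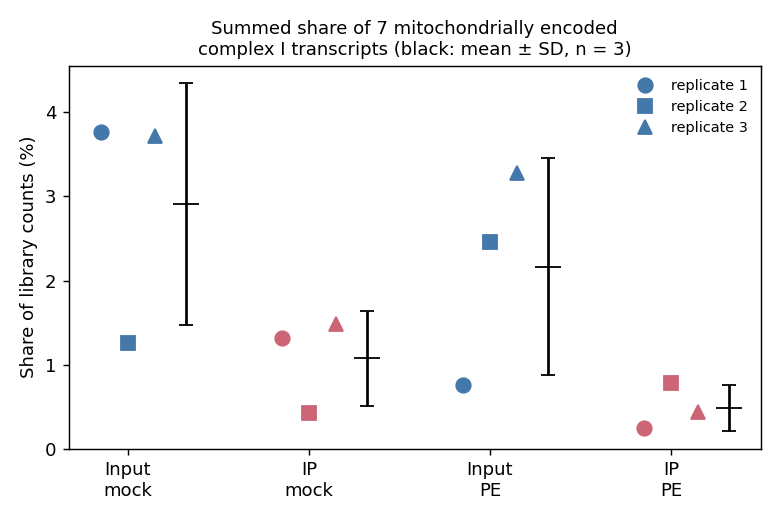
Share of all library counts (%) held by the 7 mitochondrially encoded complex I transcripts, with 1 point per library, the shape giving the replicate number, and black bars giving the mean ± SD of 3 libraries. The mock inputs of replicates 1 and 3 (3.77% and 3.72%) and the PE inputs of replicates 2 and 3 (2.46% and 3.28%) lie above all precipitates, whose highest value is 1.48%.

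Levels below are CPM scaled with TMM factors, which set most genes near an equal level in all libraries, and fold changes are relative to that scaling. On this scale the log2 fold change of IP against input had a median over all genes of 0.11 in mock and 0.18 in PE cells. Scaled by library totals alone it was 1.32 and 1.27, with 842 genes called higher and 10 lower in mock cells against 17 and 61 with TMM. In PE cells the split was then 641 and 24 against 48 and 173, and for the mean of both treatments 2823 and 65 against 237 and 380. The median log2 fold change of the 7 members was -2.75 in mock and -3.42 in PE cells with TMM, and -1.34 and -2.15 with library totals. In mock cells 6 members were below 0 and in PE cells all 7 were, under both scalings.

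In mock cells, 2 of the 7 transcripts were lower in the Cpeb4 precipitate and 0 were higher, in the edgeR quasi-likelihood test with an adjusted p under 0.05 over all genes, where 0.581% of all genes were called lower and 0.162% higher. They were Mt-nd3 and Mt-nd6. In PE cells 3 of 7 were lower and 0 higher, namely Mt-nd3, Mt-nd4l and Mt-nd6, where 1.65% of all genes were called lower and 0.458% higher. For the mean of both treatments 6 of 7 were lower, all but Mt-nd4, with 3.62% of all genes called lower and 2.26% higher. Without mock replicate 2 and PE replicate 1, 6 members were called lower in mock cells, 7 in PE cells and 6 in the mean of both. In those fits 349, 623 and 863 of 10735 genes were called lower, more than with all 12 libraries. With the replicate number as a block, which pairs input and IP, 6 members and 177 of 10491 genes were called lower in mock cells. In PE cells 6 members and 293 genes were. The mock count was 0 without mock input replicate 1 or 3 or without mock IP replicate 1, 2 or 3. Among all genes, lower calls in mock cells were then 3, 13, 4, 12 and 4 in that order, against 61 with all libraries. The mock count was 1 without PE input replicate 2 or PE IP replicate 3, where 25 and 51 genes were called lower. In PE cells it was 1 without mock input replicate 1, mock IP replicate 1, PE input replicate 2 or 3, or PE IP replicate 1 or 3. The PE count was 2 without mock input replicate 3, mock IP replicate 3 or PE IP replicate 2. For the mean it was 3 without mock IP replicate 2 or PE IP replicate 1. It stayed at 6 only without mock input replicate 2 or PE input replicate 1, and was 4 without any other single library. With 1 library left out, 63 to 246 of all genes were called lower in PE cells, against 173 with all libraries. In the mean there were 259 to 417, against 380. These fits tested 11145 to 11384 genes.

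**Figure D2:**
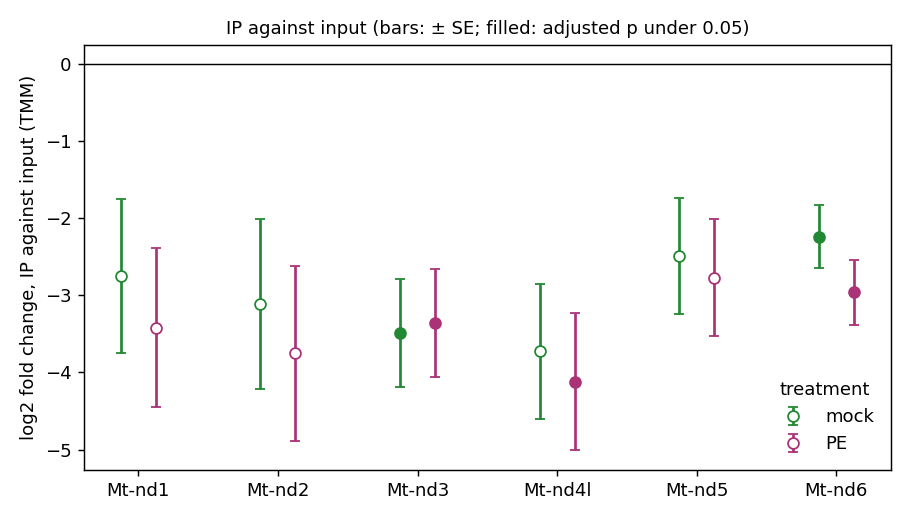
Log2 fold change of IP against input (TMM scaling, vertical axis) for 6 transcripts in mock (green) and PE (magenta) cells, with bars of ± SE and filled points for an adjusted p under 0.05. All 12 values lie below 0, between -2.24 and -4.12. Mt-nd4 is left out because it had no count in the PE precipitates.

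Mt-nd1 and Mt-nd2 encode core subunits of the membrane arm, with Mt-nd1 next to the site where ubiquinone is bound, and in each library 1 of the pair held the most counts of the members, except in mock input 2, mock IP 2 and PE input 1, where Mt-nd6 did. Ordered by raw counts of the 3′ end kit, Mt-nd1 stood at place 8 to 56 among all features of an input library. In a precipitate it stood at place 15 to 182. Such places do not rank abundance. Mt-nd1 was at 28801, 4347 and 26662 CPM in mock inputs 1, 2 and 3 and at 3655, 734 and 4492 CPM in mock precipitates 1, 2 and 3. In PE inputs it was at 2606, 13808 and 23827 CPM and in PE precipitates at 484, 1944 and 1327 CPM. The PE groups did not overlap, whereas in mock cells precipitate 3 lay just above input 2. Its log2 fold change was -2.75 (SE 1.00, edgeR adjusted p = 0.332) in mock cells and -3.42 (SE 1.03, adjusted p = 0.159) in PE cells, and neither passed. With the replicate block the mock value of Mt-nd1 was -2.70 and passed (edgeR adjusted p = 0.00123). Its PE value was then -3.13 and passed (edgeR adjusted p = 0.000451), but the pairing is only a hint in PE cells.

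Mt-nd2 had 33162, 3156 and 29781 CPM in mock inputs 1, 2 and 3, against 3322, 863 and 3463 CPM in mock precipitates. Its PE inputs had 1265, 12859 and 21246 CPM and its PE precipitates 488, 1419 and 718 CPM. Mock input 2 and PE input 1 were the low inputs, and each lay below the highest precipitate of its treatment. Its log2 fold change was -3.11 (SE 1.10, edgeR adjusted p = 0.318) in mock and -3.75 (SE 1.14, adjusted p = 0.165) in PE cells. The mock value with the replicate block was -2.77 and passed (edgeR adjusted p = 0.0484), as did the PE value of -3.15 (adjusted p = 0.0302). Averaged over both treatments, Mt-nd1 (-3.09, SE 0.72, edgeR adjusted p = 0.0335) and Mt-nd2 (-3.43, SE 0.79, adjusted p = 0.0338) passed. When libraries were removed one at a time, both calls were lost in 10 of 12 fits (edgeR adjusted p up to 0.117 and 0.116). They were kept without mock input 2 and without PE input 1. Without mock replicate 2 and PE replicate 1, with 2 libraries per group, Mt-nd1 was at -2.80 in mock cells (edgeR adjusted p = 6.34e-06). In PE cells it was at -3.55 (adjusted p = 2.98e-07). In the same 8 libraries Mt-nd2 was at -3.25 (edgeR adjusted p = 2.92e-05) and -4.02 (adjusted p = 3.61e-06).

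Mt-nd3, a small subunit at the junction of the membrane arm and the arm that takes up NADH, separated the inputs from the precipitates in all 12 libraries. It was at 2776, 1129 and 3314 CPM in mock inputs 1, 2 and 3 and at 650, 1410 and 2815 CPM in PE inputs. Its precipitates had 218, 111 and 314 CPM in mock and 69.2, 305 and 102 CPM in PE cells. The lowest input thus held 650 CPM and the highest precipitate 314 CPM. The log2 fold change was -3.49 (SE 0.70, edgeR adjusted p = 0.0409) in mock and -3.36 (SE 0.69, adjusted p = 0.0276) in PE cells, and -3.42 (SE 0.49, adjusted p = 0.00131) over both. The mock call was lost in 7 of 12 fits with a single library removed (mock inputs 1 and 3, the 3 mock precipitates, PE input 2 and PE precipitate 3), with edgeR adjusted p up to 0.215. The PE call was lost in 6 of 12 (mock input 1, mock precipitate 1, PE inputs 2 and 3 and PE precipitates 1 and 3), with adjusted p up to 0.121. The averaged call was kept in all 12, with adjusted p up to 0.00851.

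Mt-nd4l, the short reading frame that precedes Mt-nd4 on their shared mRNA, had the most negative fold change of the members other than Mt-nd4 in both treatments. It was at 1497, 160 and 1137 CPM in mock inputs 1, 2 and 3 and at 104, 526 and 798 CPM in PE inputs. In precipitates it was at 78.6, 44.6 and 87.6 CPM in mock and at 12, 43.4 and 27.7 CPM in PE cells. Every input lay above every precipitate, with PE input 1 the lowest input. Its log2 fold change was -3.73 (SE 0.87, edgeR adjusted p = 0.0848) in mock cells and -4.12 (SE 0.89, adjusted p = 0.0356) in PE cells. Without mock input 2 or without PE input 1 both treatments passed, and without any 1 of the other 10 libraries neither did (edgeR adjusted p up to 0.174 in PE cells). In mock cells Mt-nd4l also passed with the replicate block (-3.29, edgeR adjusted p = 0.00909) and when scaled by library totals (-2.29, adjusted p = 0.0400). Over both treatments Mt-nd4l was at -3.92 (SE 0.62, edgeR adjusted p = 0.00277).

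Mt-nd5, which encodes a proton-pumping subunit at the far end of the membrane arm, passed in the average of both treatments but in neither alone. It had 4172, 792 and 3539 CPM in mock inputs 1, 2 and 3 and 570, 250 and 694 CPM in mock precipitates. Its PE inputs had 504, 1735 and 2917 CPM and its PE precipitates 160, 448 and 150 CPM. Within each treatment the inputs lay above the precipitates, but PE input 1 lay below 2 of the mock precipitates. The log2 fold change was -2.49 (SE 0.75, edgeR adjusted p = 0.206) in mock, -2.77 (SE 0.75, adjusted p = 0.0970) in PE cells and -2.63 (SE 0.53, adjusted p = 0.0116) over both. The averaged call was lost without mock IP replicate 2 and without PE IP replicate 1, with adjusted p up to 0.0543, and the PE value passed without PE input replicate 1. With the replicate block Mt-nd5 passed in mock cells (-2.30, edgeR adjusted p = 0.0378) and in PE cells (-2.59, adjusted p = 0.0208).

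Mt-nd6, the light-strand transcript, had the smallest standard error of the members in every comparison of IP with input. It stood at 6715, 4672 and 6764 CPM in mock inputs 1, 2 and 3 and at 2700, 3750 and 6253 CPM in PE inputs. Precipitates held 1329, 940 and 1575 CPM in mock and 314, 931 and 386 CPM in PE cells. All inputs exceeded all precipitates. The log2 fold change was -2.24 (SE 0.41, edgeR adjusted p = 0.0275) in mock and -2.96 (SE 0.42, adjusted p = 0.00164) in PE cells, and -2.60 (SE 0.29, adjusted p = 0.000102) over both. The mock call was lost in 5 of 12 fits with a single library removed (mock inputs 1 and 3 and the 3 mock precipitates), with edgeR adjusted p up to 0.102. The PE call was kept in all 12, with adjusted p up to 0.0126. Scaled by library totals, the mock value was -1.0 and did not pass (edgeR adjusted p = 0.106). Whether reads were counted by strand is not given in the sources used here. If they were not, reads of Mt-nd6 and reads from the opposite strand of the same place cannot be told apart.

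Mt-nd4 was almost absent from the counts, although it encodes a proton-pumping core subunit and shares its mRNA with Mt-nd4l. Its row held 542 counts over the 12 libraries, of 2052541 counts for all 7 members, and 6 libraries had none. The part of the 3′ end kit in these low counts was not tested. The counts were 15, 0 and 0 in mock inputs 1, 2 and 3, 64, 88 and 82 in PE inputs, 20, 0 and 273 in mock precipitates, and 0, 0 and 0 in PE precipitates. Mock IP replicate 3 thus held 93.2% of the counts of its group, and the mock groups overlapped. A count of 0 allows up to 3 counts, which is between 0.0993 and 2.11 CPM of a library's total, for counting error only. How reads in overlapping reading frames, or reads that also match nuclear copies of mitochondrial sequence, were assigned is not given in the sources used here, and its part in these low counts was not tested. With the 3 PE precipitates together set to 3 counts as a floor, Mt-nd4 was at least 73.4-fold lower there than in PE input, on the scale of library totals. That bound was 184-fold without PE input replicate 3, 61.3-fold without replicate 1 and 52.6-fold without replicate 2. It rests mainly on PE IP replicate 1, which gave 30216559 of the 37494365 counts pooled, and no bound was computed without that library. Taken singly, 3 counts were 0.0993, 1.35 and 0.594 CPM of the total in PE precipitates 1, 2 and 3. On that scale PE inputs 1, 2 and 3 held 12.4, 17.1 and 2.78 CPM, so precipitates 2 and 3 alone bound the difference less. Mt-nd4 failed the test in PE cells (edgeR adjusted p = 0.115), but passed without mock IP replicate 2. It also passed without mock replicate 2 and PE replicate 1 (edgeR adjusted p = 0.00853) and without a filter (edgeR adjusted p = 0.00787). The DESeq2 Wald test passed it as well (adjusted p = 0.00180). With the other scalings, the replicate block or the 6 libraries alone it did not pass. In mock cells its fitted log2 fold change was 1.94 (SE 2.08, edgeR adjusted p = 0.871).

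**Figure D3:**
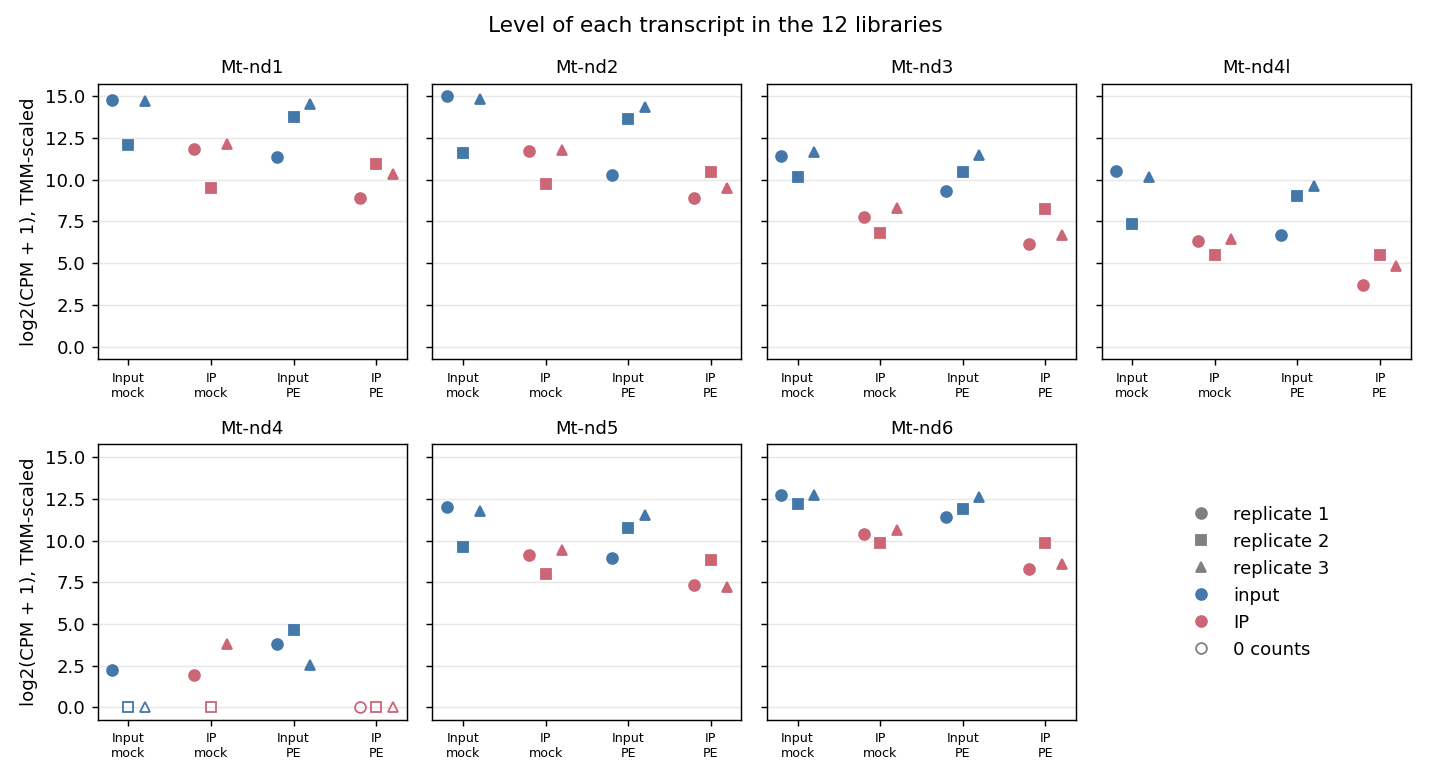
Level of each transcript, as log2(CPM + 1) with TMM scaling, in the 12 libraries, with blue for input, red for IP, marker shapes for replicates and open markers for 0 counts. For Mt-nd3, Mt-nd4l and Mt-nd6 the 6 inputs lie above the 6 precipitates, while Mt-nd4 is at 0 in 6 libraries and reaches 23.7 CPM at most.

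Counting the members without overlap between groups gave 4 of 7 lower in mock IP (Mt-nd3, Mt-nd4l, Mt-nd5 and Mt-nd6), where 7.9% of all genes tested were lower without overlap. In PE cells there were 6 of 7, all but Mt-nd2, where 9.21% of all genes were. Across both treatments, 6 libraries against 6, there were 3 of 7 (Mt-nd3, Mt-nd4l and Mt-nd6), where 2.99% of all genes were. No member was higher without overlap in any of these comparisons, where 9.96%, 12.9% and 1.67% of all genes were.

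The make-up of the 7 transcripts, which does not depend on the scaling of libraries, differed most in the libraries that stood apart. Shares here are of raw counts from a 3′ end kit, so they do not rank the transcripts' abundance. How well each transcript is captured was not tested. Mt-nd6 took 8.71%, 32.8% and 9.50% of the members' counts in mock inputs 1, 2 and 3, and 34.4%, 11% and 10.8% in PE inputs. Its part in precipitates was 14.5%, 31.9% and 14.8% in mock and 20.6%, 18.3% and 14.2% in PE cells. Mock replicate 2 of input and IP and PE input replicate 1 were thus the 3 high libraries, and they are the inputs and the precipitate that stood apart from others of their type. Mt-nd1 and Mt-nd2 together filled 52.6% and 49.4% in the 2 inputs that stood apart, against 77.9% to 80.3% in the other 4 inputs. The part that genes without counts have in these values was not tested.

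Without mock replicate 2 and PE replicate 1, Mt-nd6 took 8.71% to 11% of the members' counts in 4 inputs and 14.2% to 18.3% in 4 precipitates. Mt-nd5 took 4.97% to 5.41% in these inputs and 5.52% to 8.80% in these precipitates. The parts of Mt-nd2 and Mt-nd4l were lower in the precipitates. Mt-nd2 went from 36.7% to 43.0% of the members' counts in the 4 inputs to between 26.5% and 36.2% in the 4 precipitates, and Mt-nd4l from 1.38% to 1.94% to between 0.823% and 1.02%. Mt-nd1 (37.3% to 41.2% and 38.2% to 48.9%) and Mt-nd3 (3.60% to 4.86% and 2.38% to 5.99%) overlapped. With all 12 libraries the 6 inputs and 6 precipitates overlapped for every member, including Mt-nd5, whose mean part was 5.41% in input and 7.67% in IP. These parts sum to a fixed whole, so a rise of one lowers others, and no p-value is given for them.

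**Figure D4:**
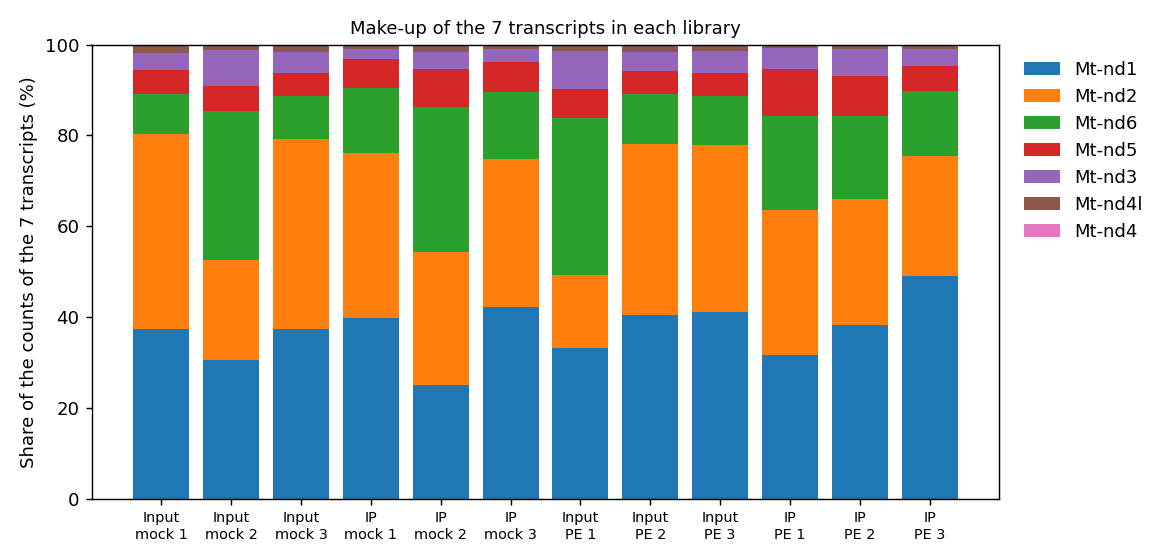
Share (%) of the counts of the 7 transcripts that each of them took, with 1 bar per library in the order of groups. The green part, Mt-nd6, is 32.8%, 31.9% and 34.4% in mock input 2, mock IP 2 and PE input 1 and at most 20.6% in the other libraries.

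PE treatment changed none of the 7 transcripts in the input by the test. For PE against mock in input, 0 members were called higher or lower by edgeR and 0 by the DESeq2 Wald test. At an unadjusted p under 0.05 there were also 0, where 375 of 10491 genes were under it (edgeR). By adjusted p, 0.00953% of all genes were called higher and 0% lower. The log2 fold changes were -0.57 (SE 0.94) for Mt-nd1, -0.90 (SE 1.03) for Mt-nd2, -0.57 (SE 0.64) for Mt-nd3, -0.97 (SE 0.79) for Mt-nd4l, -0.72 (SE 0.71) for Mt-nd5 and -0.51 (SE 0.39) for Mt-nd6. With errors of this size, equal levels are not shown either. Mt-nd4, with 15 counts in mock and 234 in PE input, was the only member without overlap, where 5.67% of all genes were higher and 4.18% lower without overlap. Its fit gave 3.36 (SE 2.18, edgeR adjusted p = 1). Without mock replicate 2 and PE replicate 1, 0 members were called.

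In the Cpeb4 precipitates, values after PE were lower than in mock cells for all 7 members, and none passed the test. Their median log2 fold change was -1.24, against 0.12 for all genes. By edgeR 0 of 7 were called, and by the DESeq2 Wald test also 0. At an unadjusted p under 0.05 there were 2, Mt-nd4 and Mt-nd6 (edgeR), where 581 of 10491 genes were under it. By adjusted p, 0% of all genes were called lower and 0.00953% higher. Mt-nd6 was at -1.24 (SE 0.40, edgeR adjusted p = 0.725) and Mt-nd4l at -1.36 (SE 0.80, adjusted p = 1), and these 2 did not overlap between treatments, where 6.29% of all genes were lower and 8.61% higher without overlap. Mt-nd1 was at -1.24 (SE 0.95), Mt-nd2 at -1.54 (SE 1.04), Mt-nd5 at -1.0 (SE 0.71) and Mt-nd3 at -0.44 (SE 0.64). Without mock replicate 2 and PE replicate 1, Mt-nd1 (-1.32, edgeR adjusted p = 0.0308) and Mt-nd2 (-1.67, adjusted p = 0.0320) were called lower after PE, where 19 of 10735 genes were called lower and 20 higher. With the same floor, Mt-nd4 was at least 95.6-fold lower in PE than in mock precipitates, but at least 10.9-fold without mock IP replicate 3. These values pool libraries, and PE IP replicate 1 gave 30216559 of the 37494365 PE counts pooled. They cover counting error only, not the spread between libraries. Mock IP replicate 2 also had 0 counts, so neither value bounds an effect of PE. Mt-nd4 failed the test (edgeR adjusted p = 0.739).

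No change of the IP enrichment with PE was called for a member. The difference between both IP contrasts gave 0 of 7 higher or lower (edgeR, adjusted p 1.00 for each), where 0% of all genes were called. Mt-nd4 alone passed an unadjusted p of 0.05 (edgeR), where 271 of 10491 genes did. By the DESeq2 Wald test 0 members were called. The differences were -0.67 (SE 1.33) for Mt-nd1, -0.64 (SE 1.44) for Mt-nd2, 0.13 (SE 0.90) for Mt-nd3, -0.39 (SE 1.11) for Mt-nd4l, -0.28 (SE 1.00) for Mt-nd5 and -0.72 (SE 0.56) for Mt-nd6. The larger count of members called in PE cells is therefore not a shown difference from mock cells.

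The members other than Mt-nd4 moved closely together from library to library. Over the 12 libraries the Pearson r of their log2 CPM was 0.88 to 0.98 for the 15 pairs, and 0.77 to 0.97 after the group means had been removed. The 6 pairs with Mt-nd4 had 0.38 to 0.48. All members of a library share its depth and scaling, so these correlations are descriptions. Among 5859 other genes that averaged 10 CPM or more, the one most like the members' summed level was ENSRNOG00000031766 (Pearson r 0.99 over 12 libraries, 0.99 with group means removed). It ranged from 5620 to 56582 CPM in input and from 629 to 4821 CPM in IP. The next, ENSRNOG00000031979, had r 0.99 (0.98 with group means removed) and ranged from 7037 to 68364 CPM in input and from 763 to 7459 CPM in IP. The sources used here do not pair these 2 identifiers with gene symbols.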

How the data were processed

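The authors deposited raw counts per Ensembl gene for 12 libraries made with a 3′ end kit from 200 ng of RNA, per the labels' protocols. Per the submitters' processing notes, cutadapt 2.5, STAR 2.7, featureCounts 1.6.4, DESeq2 and the build Rnor_6.0 were used, with options not given in the sources used here. Blank lines (32883) were skipped. Columns were matched by sample type, treatment and replicate number. Symbols of the members follow the list that defined them. The reference table (GRCr8) holds 0 Ensembl identifiers, so nuclear complex I genes, other lists and cell type markers were not analysed, nor were sequences or coordinates.

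Counts were fitted with edgeR 4.0.16 (R 4.3.3): TMM factors, filterByExpr, robust quasi-likelihood F-test, 4 group means over 12 libraries, Benjamini-Hochberg adjustment over all genes tested, threshold 0.05. The SE is the log2 fold change divided by the square root of F. Correlations used log2 CPM with a prior count of 1. The code was tested on simulated data. In mock cells all 3 same-numbered pairs of input and IP deviated together (r 0.16, 0.24 and 0.10). In PE cells r was 0.19, 0.014 and 0.19. Values with a replicate block therefore stand beside the results whose call they change, with less ground in PE cells. Alternatives were other scalings, no filter, DESeq2 1.42.0, fewer libraries and replicate blocks. All 7 members are named; the genes most like them were the top 2 by Pearson r. Permutation tests planned for summed and relative shares are not reported, since the members, lists and alternatives were chosen with earlier results of these data known.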

Additional observations from a re-analysis of the deposited data

How the results depend on the processing

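Counts of members called lower for IP against input were 2 in mock and 3 in PE cells. They became 6 and 7 without a filter, where 191 and 265 of 15786 genes were called lower. With the DESeq2 Wald test they were 6 and 7, where 287 and 395 of 15207 genes were. They were also 6 and 7 without mock replicate 2 and PE replicate 1, where 349 and 623 of 10735 genes were. Fitted on the 6 libraries compared they were 0 and 2, where 1 of 8838 and 77 of 9329 genes were. Leaving out 1 library gave 0 to 3 in mock, 1 to 4 in PE and 3 to 6 in the mean of both treatments (6 with all libraries). DESeq2 size factors and library totals changed no count of members, but with library totals Mt-nd4l took the place of Mt-nd6 among the 2 in mock cells. PE against mock in IP (0 lower) gave 1 without a filter, where 13 of 15786 genes were called lower. It gave 2 without mock replicate 2 and PE replicate 1, where 19 of 10735 genes were. No alternative called a member higher. The cause was not tested.

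A replicate block, pairing input and IP of a number within a treatment, gave 6 and 6 members lower, where 177 and 293 of 10491 genes were. In PE cells and over both treatments the pairing is only a hint from the data, since 1 of the 6 pairs of input and IP had r of 0.014 (the other 5 were over 0.1), and 9 of 12 libraries correlated best with their own number. The labels do not tie them to a shared culture. Across treatments, r ran from -0.22 to 0.12, and the block called 0 members.

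For all genes, lower calls of 61 in mock, 173 in PE and 380 in the mean became 10, 24 and 65 with library totals, where higher calls of 237 in the mean became 2823, and 349, 623 and 863 without mock replicate 2 and PE replicate 1. The DESeq2 Wald test gave 287, 395 and 672. No filter gave 191 and 265 in mock and PE, the 6 libraries alone 1 and 77, and the block 177 and 293. Leaving out 1 library gave 3 to 76 in mock, 63 to 246 in PE and 259 to 417 in the mean. For PE against mock, 0 genes lower in input and in IP became 1 and 13 without a filter and 7 and 18 with DESeq2, and 0 and 19 without mock replicate 2 and PE replicate 1, where 8 and 20 were higher.

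The summed share, IP minus input, was -1.76 percentage points, with -1.48 to -2.17 when 1 library was left out. Leaving the 10 most abundant other features out of the denominator gave -4.33. It was -38385 as summed TMM CPM and -1.77 as log2 share. PE minus mock in input was -0.75 percentage points (-2.65, -20921 and -0.51 in the same 3 forms), with -1.58 to -0.041 when 1 library was left out. In IP it was -0.59 (-4476 as summed CPM, -1.13 as log2 share), with -0.92 to -0.39. The difference of IP enrichment changed sign with single libraries left out, from -1.18 to 0.037 for Mt-nd1, -1.20 to 0.096 for Mt-nd2, -0.76 to 0.78 for Mt-nd3, -0.92 to 0.21 for Mt-nd4l and -0.98 to 0.34 for Mt-nd5. Mt-nd4 is limited by its counts, and the other members by the spread between libraries.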

Other observations

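The ratio of Mt-nd6 to Mt-nd5 counts, which needs no scaling of libraries, was 1.61, 5.90 and 1.91 in mock inputs 1, 2 and 3 and 5.36, 2.16 and 2.14 in PE inputs. In precipitates it was 2.33, 3.76 and 2.27 in mock and 1.96, 2.08 and 2.58 in PE cells. The 3 highest values lay in mock input 2, PE input 1 and mock IP 2. Both genes come from neighbouring, oppositely oriented parts of mitochondrial DNA.

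The ratio of Mt-nd1 to Mt-nd2 counts was 0.868, 1.38 and 0.895 in mock inputs 1, 2 and 3 and 2.06, 1.07 and 1.12 in PE inputs. In precipitates it was 1.10, 0.851 and 1.30 in mock and 0.992, 1.37 and 1.85 in PE cells. The groups overlapped, and the library with the highest ratio was PE input 1.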
